A study of Mus musculus with 6 samples.

Results

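Formative and primed epiblast markers are genes that embryonic stem cells switch on when they leave the naive state. This group held 7 genes, *Otx2*, *Pou3f1*, *Zic2*, *Sox3*, *Etv1*, *Fgf5* and *Lin28b*, which were chosen by name as known markers. No threshold on their values was used, but earlier results of these data were known when they were chosen. All 7 were among the 16668 genes listed in every file. Of these genes, 11538 had a mean of at least 0.5 RPKM (reads scaled by the exon length of a gene and by the mapped reads of the library) over the 6 libraries and were tested, and 6 of the 7 markers were among them. *Fgf5* was below this minimum. *Fgf5* and *Pou3f1* were at the counting limit, defined here as a mean below 10 reads per library.

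The naive state is the ground state of mouse embryonic stem cells, held in culture by blocking MEK and GSK3 and adding LIF. On release from these inhibitors, cells pass through a formative phase, in which *Otx2*, *Pou3f1* and *Fgf5* are switched on, towards the primed state of the epiblast that precedes gastrulation. Naive factors such as *Nanog*, *Esrrb* and *Zfp42* are lowered over the same period, while *Pou5f1* and *Sox2* stay on. Polycomb complexes, which include the H2A ubiquitin ligase Ring1B, hold many developmental regulators silent in naive cells.

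The study sequenced RNA from E14 mouse embryonic stem (mES) cells, an established feeder-independent line of the 129/Ola strain with a wild type genotype. All cells were grown in N2B27 medium with 2i, that is 1 µM of the MEK inhibitor PD0325901 and 3 µM of the GSK3 inhibitor CHIR99021, plus 1000 U/ml LIF. The titles name the knockdowns, and the methods of the study describe transfection of targeting or control siRNA, which the labels do not mention for these libraries. The sample titles gave 3 groups of 2 libraries: control, Ring1B-KD (knockdown of Ring1B, encoded by *Rnf2*) and Dzip3-KD (aimed at Dzip3, which also ubiquitylates H2A). The study calls the duplicate libraries biological. Whether they came from separate cultures or days is not given in the sources used here, so p-values measure only the spread between these samples. A knockdown leaves part of the target RNA, and a line in culture models the epiblast only in part.

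Each deposited file also carried a number and a condition word in its name, and for 4 of the 6 libraries the word differed from the title. The libraries labelled control 1 (file 1, word control), control 2 (file 2, word Ring1BKD) and Ring1B-KD 1 (file 3, word Dzip3KD) made up the first set of files. The library labelled Ring1B-KD 2 (file 4, word control), with Dzip3-KD 1 (file 5, word Ring1BKD) and Dzip3-KD 2 (file 6, word Dzip3KD), made up the second set. What the file numbers stand for is not given in the sources used here. The control label was thus found only among files 1 to 3 and the Dzip3-KD label only among files 4 to 6, so the difference between these labels without a term for the set is also one between the sets. A fit with the set as a block separates both through the libraries labelled Ring1B-KD alone, of which file 3 lies in the first set and file 4 in the second. Below, libraries are named by their labels, and a label does not assert that a knockdown took place.

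Neither targeted gene set its own label apart from the others. *Rnf2* was at 30.6 and 20.4 RPKM under the label control, 26.8 and 28.8 under Ring1B-KD, and 19.4 and 28.2 under Dzip3-KD, so its lowest values were in both files with the word Ring1BKD. *Dzip3* was at 2.24 and 2.68 RPKM under the label control, 1.18 and 1.89 under Ring1B-KD, and 1.70 and 1.31 under Dzip3-KD. The libraries of both knockdown labels thus lay below both controls. On the log2(RPKM + 1) scale *Dzip3* was at -0.47 (SE 0.24) in Dzip3-KD and -0.46 (SE 0.24) in Ring1B-KD against control. The adjusted p was 0.458 and 0.902 in limma, the test described below. *Rnf2* was at 0.15 (SE 0.24) in Ring1B-KD against control by label, with an adjusted p of 0.965 in limma. By file word it was at -0.55 (SE 0.13) in Ring1BKD against control, with an adjusted p of 0.232 in limma. The lowest *Dzip3* values were in both files with the word Dzip3KD, of which 1 carries the label Ring1B-KD. Comparisons are therefore given in both arrangements, by label and by file word within the sets. Read numbers were recovered from the steps of the RPKM values, and the libraries held between 3015348 and 3583610 mapped reads each. A single read on 1 kb of exon was worth 0.279 to 0.332 RPKM.

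Promoters, taken here as the 250 bases before a transcription start, are shown for the most variable markers and for the marker nearest to 0 in these libraries. RefSeq (build GRCm38.p6) held starts for 4 of the 7 markers, *Otx2*, *Etv1*, *Fgf5* and *Lin28b*, and 8 starts in all. The files hold no measurement over promoters. Each sequence runs 5′ to 3′ on the strand of the gene, and capitals mark CpG dinucleotides, the sites of DNA methylation whose density is high at many Polycomb-bound promoters. *Otx2* has 4 listed starts and *Etv1* has 2, and the start with the most CpG is shown for each.
Otx2, chr14:48665110-48665359, minus strand: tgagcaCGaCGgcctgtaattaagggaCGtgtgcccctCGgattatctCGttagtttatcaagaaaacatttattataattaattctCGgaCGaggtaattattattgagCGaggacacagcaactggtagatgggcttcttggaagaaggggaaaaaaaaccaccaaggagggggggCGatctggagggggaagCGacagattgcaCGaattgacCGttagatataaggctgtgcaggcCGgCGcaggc
Etv1, chr12:38779832-38780081, plus strand: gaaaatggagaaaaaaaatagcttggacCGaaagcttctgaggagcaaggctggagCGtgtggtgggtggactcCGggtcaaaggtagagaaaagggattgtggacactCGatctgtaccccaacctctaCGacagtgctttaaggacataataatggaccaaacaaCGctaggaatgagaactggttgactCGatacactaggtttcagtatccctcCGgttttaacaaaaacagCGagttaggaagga
Fgf5, chr5:98253934-98254183, plus strand: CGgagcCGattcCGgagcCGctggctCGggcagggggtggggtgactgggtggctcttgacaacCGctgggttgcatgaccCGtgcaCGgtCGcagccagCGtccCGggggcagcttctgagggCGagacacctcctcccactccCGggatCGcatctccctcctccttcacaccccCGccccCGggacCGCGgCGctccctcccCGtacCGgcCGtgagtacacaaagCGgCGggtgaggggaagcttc
The *Fgf5* promoter held 24 CpG, more than 88.0% of the 32851 mouse promoters in the table, the *Otx2* promoter 14 and the *Etv1* promoter 9, against a median of 6. The other 3 starts of *Otx2* held 9, 8 and 6 CpG and the other start of *Etv1* held 1. The *Fgf5* promoter was 70.8% G or C, the *Otx2* promoter 48.4% and the *Etv1* promoter 46.4%, with a median of 52.4% over all promoters. The letters TAATCC, read by OTX proteins, occurred once on either strand of the *Otx2* promoter shown and at none of its other starts, and were in 6.25% of all promoters. CTTTGA, read by TCF proteins, occurred once in the *Etv1* promoter shown, not at its other start, and in 13.8% of all promoters. ATGCAAAT, the octamer of POU factors, and CATTGT, read by SOX proteins, were in none of the 8 promoters and in 1.60% and 10.7% of all. A match of letters is a description and not evidence of a bound site.

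As a group, the 7 markers were low beside the naive genes in every library. Their summed level was 16.2 to 28.6 RPKM, against 1314 to 1613 RPKM for 16 naive markers, which is 1.24% to 1.82%. In each library, 13 or 14 of the 16 naive markers lay above the highest of the 7. *Zic2* lay above the naive markers *Dppa3* and *Gbx2* in every library. The naive factors *Dppa5a*, *Nanog* and *Zfp42* averaged 509.99, 245 and 193 RPKM, and the general pluripotency genes *Pou5f1* and *Sox2* averaged 326.5 and 154 RPKM.
Averaged over the 6 libraries, the order per exon length was *Zic2* at 9.19 ± 1.44 RPKM (SD, n = 6), *Otx2* at 5.12 ± 4.89, *Etv1* at 2.86 ± 1.22, *Sox3* at 2.16 ± 0.812, *Lin28b* at 1.25 ± 0.424, *Pou3f1* at 0.887 ± 0.162 and *Fgf5* at 0.219 ± 0.0896. *Zic2* stood at the 80.0th percentile of all listed genes and *Fgf5* at the 22.2nd. *Otx2* had no fixed place in this order, since its range crossed those of its neighbours *Zic2* and *Etv1*. *Etv1*, *Sox3* and *Lin28b* overlapped their neighbours in range as well, while *Fgf5* stayed below *Pou3f1* in every library.

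**Figure D1:**
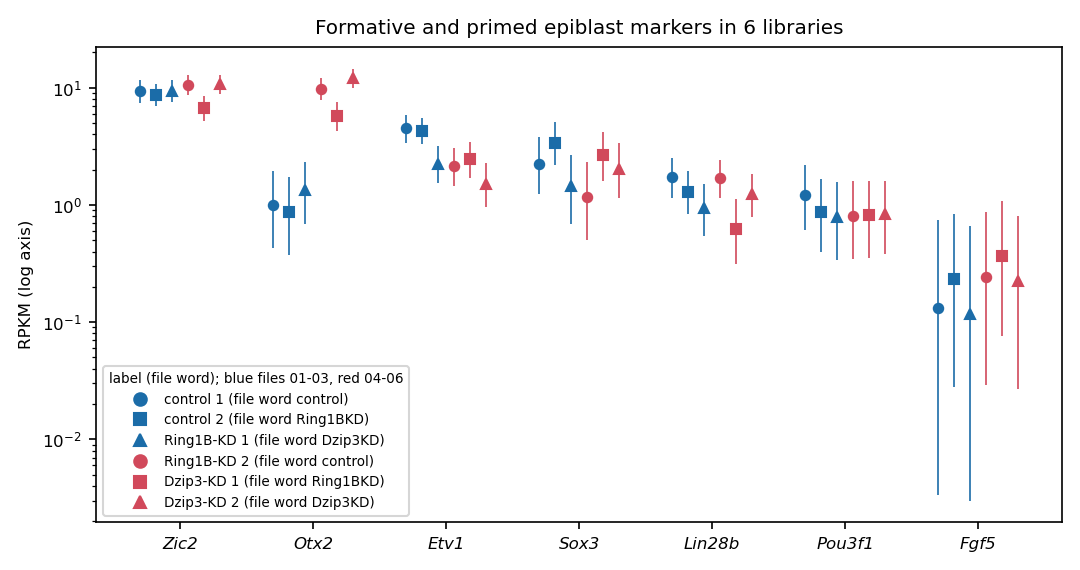
RPKM (log axis) of the 7 markers in each of 6 libraries, where the marker shape gives the file word, the colour gives the set of files and the bars are exact 95% counting intervals. *Otx2* lies between 0.871 and 1.33 RPKM in files 1 to 3 and between 5.72 and 12.1 RPKM in files 4 to 6, while *Zic2* stays between 6.71 and 10.6 RPKM.

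*Otx2* encodes a homeodomain factor that drives the step from the naive to the formative state and later patterns the forebrain. The gene lies at chr14:49277354-49287319 on the minus strand of mm9, with no overlapping annotated gene. It was at 0.991, 0.871 and 1.33 RPKM (8, 8 and 12 reads) in files 1 to 3, whose labels are control 1, control 2 and Ring1B-KD 1, and at 9.72, 5.72 and 12.1 RPKM (86, 50 and 116 reads) in files 4 to 6, whose labels are Ring1B-KD 2 and Dzip3-KD 1 and 2. The first 3 values lie below the last 3 without overlap, and the libraries labelled Ring1B-KD fall on opposite sides of the gap. By label, the means were 0.931 ± 0.0848 RPKM (SD, n = 2) for control, 5.52 ± 5.93 for Ring1B-KD and 8.90 ± 4.51 for Dzip3-KD.
Differences were tested with limma, a linear model with variances moderated across genes, on log2(RPKM + 1), a scale on which changes of low genes are understated, with p-values adjusted by Benjamini-Hochberg over all 11538 tested genes and called under 0.05. On this scale *Otx2* differed by 2.28 (SE 0.61) between Dzip3-KD and control, with an adjusted p of 0.302 in limma, and by 1.37 (SE 0.61) between Ring1B-KD and control, with an adjusted p of 0.902 in limma. With the set of files as a block, the same differences were 0.08 and 0.27. Neither passed in either fit.
Between the sets of files, *Otx2* rose by 2.25 (SE 0.18) on the log2(RPKM + 1) scale, with an adjusted p of 0.00236 in limma. Its mean was 1.06 RPKM in files 1 to 3 and 9.18 RPKM in files 4 to 6, 8.63-fold higher on the linear scale. The 3 lower values rest on 8 to 12 reads each. All *Otx2* reads given here had been doubled to give a whole exon length, so they may overstate the reads counted. The call held without any single library, with adjusted p from 0.000245 to 0.0106 in limma, and was lost without the filter on low values, at 0.0851, and without variance moderation, at 0.234. In bulk RNA, more cells that express a gene and more RNA per cell cannot be told apart. Within the second set, the file with the word Ring1BKD was at 0.588 times the *Otx2* level of the file with the word control (95% interval 0.407 to 0.843), which is the library labelled Dzip3-KD 1 over that labelled Ring1B-KD 2. Within the first set the same ratio was 0.879 (0.288 to 2.69). Intervals are exact, compare single libraries and cover counting error only. For *Otx2* they may be too narrow because of the doubling.

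*Etv1* encodes an ETS factor of the PEA3 family, whose genes respond to FGF and ERK signalling, the pathway that PD0325901 blocks. It lies at chr12:39505967-39594802 on the plus strand of mm9. The libraries labelled control 1 and control 2 held 4.48 and 4.28 RPKM (57 and 62 reads), those labelled Ring1B-KD 2.25 and 2.15 RPKM (32 and 30 reads), and those labelled Dzip3-KD 2.46 and 1.52 RPKM (34 and 23 reads). Both libraries labelled control were above the other 4, which overlapped each other. The means were 4.38 ± 0.139 RPKM (SD, n = 2) for control, 2.20 ± 0.0682 for Ring1B-KD and 1.99 ± 0.668 for Dzip3-KD.
On the log2(RPKM + 1) scale *Etv1* was at -0.75 (SE 0.23) in Ring1B-KD against control, with an adjusted p of 0.902 in limma, and at -0.86 (SE 0.23) in Dzip3-KD against control, with an adjusted p of 0.302. Neither passed the threshold over all genes. By file word, the files with Dzip3KD were below those with control, at 0.502 times (95% interval 0.315 to 0.787) in the first set and 0.707 times (0.392 to 1.26) in the second. The difference was -0.54 (SE 0.20), with an adjusted p of 0.754 in limma. The sets of files differed by -0.59 (SE 0.16) for *Etv1*, with an adjusted p of 0.0662 in limma, and passed only when limma-voom was fitted to the recovered reads, at 0.0175.

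*Sox3* encodes an HMG-box factor of the SOXB1 group, close to Sox2, that is kept in the primed epiblast and in neural progenitors. It is a gene of a single exon at chrX:58144545-58146605 on the minus strand of mm9. The libraries labelled control held 2.25 and 3.39 RPKM (14 and 24 reads), those labelled Ring1B-KD 1.44 and 1.17 RPKM (10 and 8 reads), and those labelled Dzip3-KD 2.67 and 2.03 RPKM (18 and 15 reads). Both libraries labelled Ring1B-KD were the lowest, and the control and Dzip3-KD labels overlapped. On the log2(RPKM + 1) scale Ring1B-KD was at -0.72 (SE 0.24) against control, with an adjusted p of 0.902 in limma, and Dzip3-KD at -0.18 (SE 0.24). By file word, both files with Ring1BKD were the highest of their set, at 1.51 times (95% interval 0.749 to 3.15) and 2.28 times (0.942 to 6.05) the control file. That difference was 0.59 (SE 0.25), with an adjusted p of 0.581 in limma.

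*Zic2* encodes a zinc finger factor that occupies enhancers in embryonic stem cells and is needed for neural tube and forebrain midline development. It lies at chr14:122874604-122879074 on the plus strand of mm9, 9705 bp from its relative *Zic5*. The libraries labelled control held 9.28 and 8.65 RPKM (83 and 88 reads), those labelled Ring1B-KD 9.39 and 10.5 RPKM (94 and 103 reads), and those labelled Dzip3-KD 6.71 and 10.6 RPKM (65 and 113 reads). The lowest and the highest library carried the same label, Dzip3-KD. *Zic2* differed by 0.13 (SE 0.23) between Ring1B-KD and control and by -0.07 (SE 0.23) between Dzip3-KD and control on the log2(RPKM + 1) scale. Between the sets the difference was 0.00 (SE 0.15) on the same scale. The lowest library, file 5 with the word Ring1BKD, was at 0.638 times the control file of its set (95% interval 0.461 to 0.879), against 0.932 times (0.683 to 1.27) in the first set.

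*Pou3f1*, also called Oct6, encodes a POU factor that works beside Otx2 in the formative phase and later in neural and glial cells. It lies at chr4:124334896-124337899 on the plus strand of mm9, where the annotation also lists a pseudogene entry of the same name, so reads could be split between the entries. Its level was 1.21 and 0.872 RPKM (11 and 9 reads) under the label control, 0.788 and 0.804 RPKM (8 and 8 reads) under Ring1B-KD, and 0.814 and 0.834 RPKM (8 and 9 reads) under Dzip3-KD. All 6 libraries thus held 8 to 11 reads. At this count a change of several fold between single libraries is within the interval, as the ratio of file 2 to file 1 shows at 0.719 (95% interval 0.263 to 1.91). On the log2(RPKM + 1) scale the label differences were -0.18 (SE 0.23) for Ring1B-KD and -0.16 (SE 0.23) for Dzip3-KD, and a difference was not detectable at this depth.

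*Fgf5* encodes a secreted fibroblast growth factor and is a classical marker of the formative and primed epiblast. The gene lies at chr5:98683203-98706049 on the plus strand of mm9. It was at 0.132 and 0.233 RPKM (1 and 2 reads) under the label control, 0.118 and 0.242 RPKM (1 and 2 reads) under Ring1B-KD, and 0.367 and 0.223 RPKM (3 and 2 reads) under Dzip3-KD. A total of 11 reads over all 6 libraries sets no order between them, and *Fgf5* entered no test. *Fgf4*, its relative and a gene on the naive list used here, stood far higher at a mean of 66.5 RPKM.

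*Lin28b* encodes an RNA-binding protein that blocks maturation of let-7 microRNAs and increases as cells leave the naive state, whereas its relative *Lin28a* is made in embryonic stem cells more broadly. It lies at chr10:45096426-45206201 on the minus strand of mm9. The libraries labelled control held 1.72 and 1.30 RPKM (28 and 24 reads), those labelled Ring1B-KD 0.933 and 1.68 RPKM (17 and 30 reads), and those labelled Dzip3-KD 0.623 and 1.24 RPKM (11 and 24 reads). The Ring1B-KD label overlapped both others, and the libraries labelled Dzip3-KD lay below both controls. Dzip3-KD was at -0.39 (SE 0.28) against control on the log2(RPKM + 1) scale, with an adjusted p of 0.567 in limma. By file word, both control files were the highest of their set, and the files with Ring1BKD were at 0.753 (95% interval 0.418 to 1.35) and 0.371 times (0.168 to 0.761) their control. The difference over both sets was -0.48 (SE 0.24), with an adjusted p of 0.621 in limma.

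In the labelled comparisons, 0 of 6 tested markers were called in Ring1B-KD against control, in Dzip3-KD against control or in Dzip3-KD against Ring1B-KD, and limma called 0% of all tested genes in each. At an unadjusted p under 0.05, limma gave *Etv1* and *Sox3* (2 of 6) for Ring1B-KD against control, where 5.10% of all genes passed. It gave *Otx2* and *Etv1* (2 of 6) for Dzip3-KD against control, where 12.2% passed, and 0 of 6 for Dzip3-KD against Ring1B-KD, where 4.63% passed. Both knockdown labels share the control libraries. The median difference of the tested markers was -0.16 for Ring1B-KD and -0.17 for Dzip3-KD on the log2(RPKM + 1) scale, against -0.02 and -0.07 over all genes tested. The signs were mixed, with *Otx2* above 0 and *Etv1* below 0 in both.

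By file word, with the set as a block, limma called 0 of 6 markers in each of the 3 comparisons. It called 0.416% of all genes for Ring1BKD against control, 0% for Dzip3KD against control and 0.676% for Dzip3KD against Ring1BKD. At an unadjusted p under 0.05 the markers were *Sox3* in the first (1 of 6, against 8.31% of all genes), *Etv1* in the second (1 of 6, against 6.52%) and *Otx2* and *Etv1* in the third (2 of 6, against 10.1%). In the third, *Otx2* was at 0.64 (SE 0.22) and *Etv1* at -0.58 (SE 0.20) on the log2(RPKM + 1) scale, with adjusted p of 0.372 and 0.374 in limma. Each word had 1 library per set, and the words share libraries between comparisons.

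**Figure D2:**
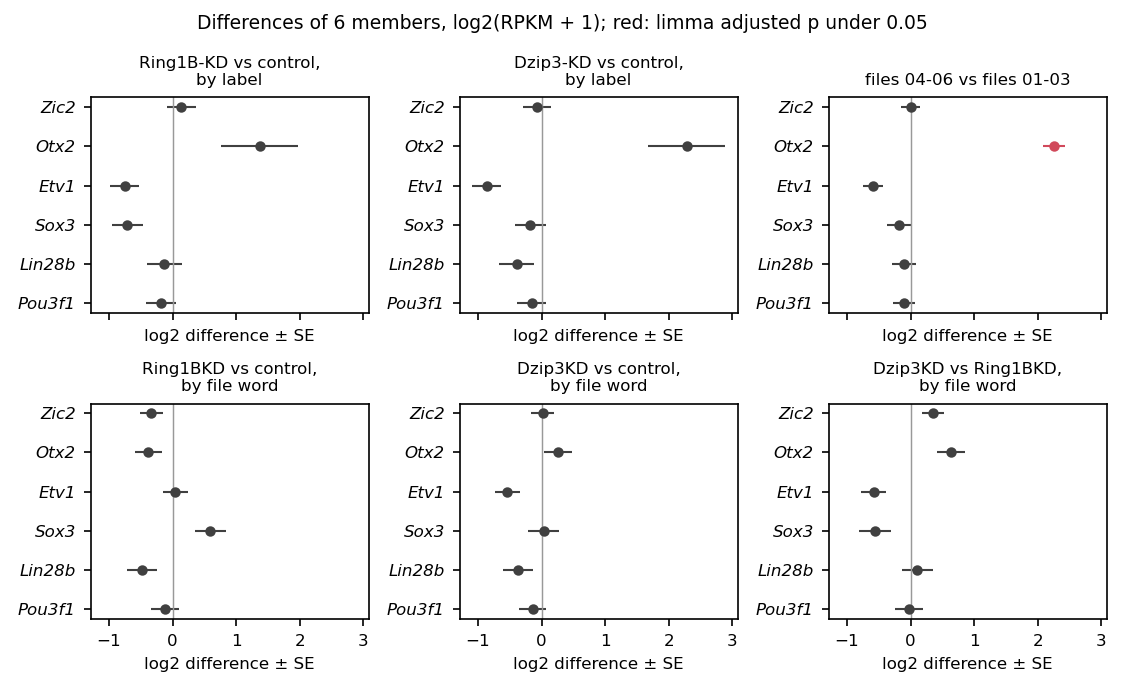
Differences of the 6 tested markers on the log2(RPKM + 1) scale with standard errors (bars) for 2 comparisons by label, 3 by file word and the sets of files, where red marks an adjusted p under 0.05 in limma. *Otx2* between the sets, at 2.25, is the only red point, and its bars by label are wider (SE 0.61) than between the sets (SE 0.18).

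**Figure D3:**
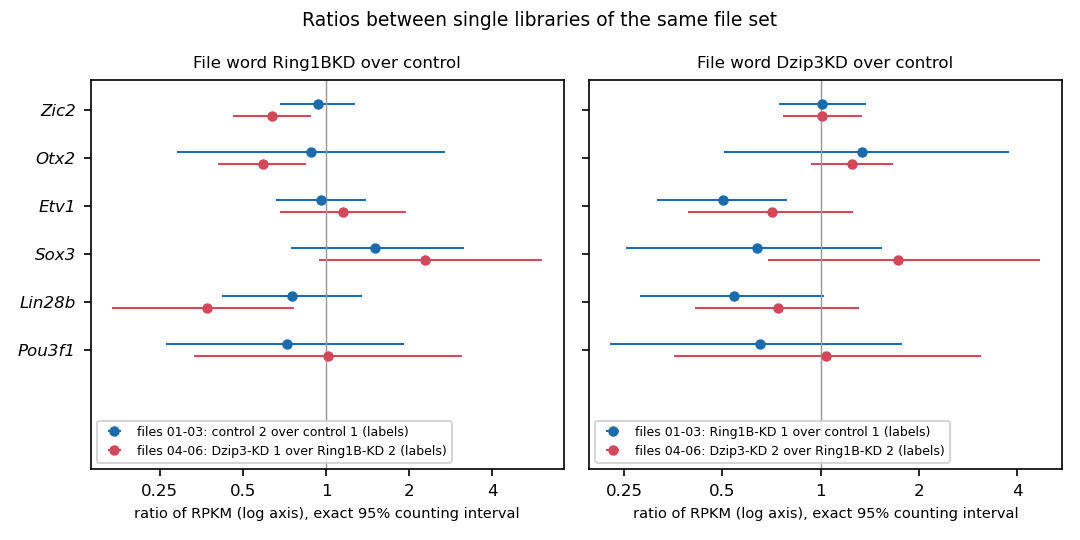
Ratio of RPKM (log axis) between single libraries of the same set of files, for the file word Ring1BKD over control (left) and Dzip3KD over control (right), with exact 95% counting intervals and the labels in the legend. *Etv1* is below 1 in both sets for Dzip3KD, at 0.502 and 0.707, and *Sox3* is above 1 in both sets for Ring1BKD, at 1.51 and 2.28.

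Between the sets of files, 1 of 6 tested markers, *Otx2*, was called, where limma called 7.62% of all tested genes. The 879 genes called were 455 higher and 424 lower in files 4 to 6, and 567 of 910 were higher after scaling to a common 75th percentile. At an unadjusted p under 0.05, *Otx2* and *Etv1* passed (2 of 6), where 26.5% of all genes did. The differences of the other tested markers lay between -0.18 for *Sox3* and 0.00 for *Zic2* on the log2(RPKM + 1) scale. The spread over all 6 libraries, as the chi-square of the reads over its degrees of freedom, was 41.6 for *Otx2*, above that of 98.9% of the 9122 genes that averaged 10 reads or more. The *Otx2* reads had been doubled to give a whole exon length, and without this, a setting chosen after seeing the data, the value was 20.8, above that of 96.9% of these genes. It was 7.38 for *Etv1*, above that of 87.5% of these genes, 2.53 for *Lin28b*, 2.22 for *Zic2* and 2.13 for *Sox3*, against a median of 2.18. *Otx2* thus varied between libraries beyond what was usual, *Etv1* did so less clearly, and the other 3 lay near the median. This measure can grow with read number, so genes of unlike depth are not compared on equal terms.

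Other formative and primed genes did not follow *Otx2* as a group between the sets. Of 16 tested genes in a wider list of formative and primed genes, 2 rose, 2 fell and 12 did not pass, where 7.62% of all genes were called. As for *Otx2*, all calls between the sets were lost without the filter on low values and with an unmoderated model, where 0 genes were called. *Nodal*, a TGF-beta ligand, rose from a mean of 25.1 to 38.6 RPKM, with an adjusted p of 0.0199 in limma, and its coreceptor *Tdgf1* rose from 133 to 199 RPKM, at 0.0229. *Dnmt3b*, a de novo DNA methyltransferase, fell from 9.64 to 3.93 RPKM, with an adjusted p of 0.0141 in limma. *Utf1*, a chromatin factor of pluripotent cells, fell from 56.2 to 34.7 RPKM, at 0.0147. *Zic5* was at 1.69 and 2.61 RPKM and did not pass.
Among 9 tested relatives of the markers, *Fgf4* rose from 39.2 to 93.8 RPKM, with an adjusted p of 0.00463 in limma, and *Etv4*, the PEA3 relative of *Etv1*, fell from 14.9 to 5.91 RPKM, at 0.00564. *Etv5*, the third member of that family, was at 56.2 and 49.2 RPKM and did not pass, nor did *Lin28a* at 8.57 and 5.69 RPKM. Of the 16 naive markers, *Fgf4* rose, *Gbx2*, *Tfcp2l1* and *Esrrb* fell and 12 did not pass after adjustment. At an unadjusted p under 0.05, limma gave 12 of 16 naive markers between the sets, where 26.5% of all genes passed. Of the 16, 7 were higher in files 4 to 6. The same threshold gave 5 of 16 in the wider list and 3 of 9 relatives. *Gbx2* fell from 7.91 to 1.61 RPKM and *Tfcp2l1* from 66.6 to 47.3 RPKM, with adjusted p of 0.00251 and 0.0351 in limma. *Esrrb*, named for its call, fell from 124 to 91.7 RPKM. *Nanog* was at 215 and 276 RPKM and *Nr0b1* at 31.5 and 22.0 RPKM, which did not pass. The median difference was -0.10 for the 6 tested markers, -0.07 for the wider list, -0.20 for the relatives and -0.16 for the naive list on the log2(RPKM + 1) scale, against -0.04 over all genes. By label, limma called 0 genes in any of these lists, while at an unadjusted p under 0.05 it gave 1 of 16 in the wider list, 4 of 9 relatives and 5 of 16 naive markers for Dzip3-KD against control, where 12.2% of all genes passed. For Ring1B-KD against control it gave 1 of 16, 2 of 9 and 1 of 16, where 5.10% passed. *Etv4* was at -1.47 (SE 0.26) in Dzip3-KD against control, with an adjusted p of 0.254 in limma.

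**Figure D4:**
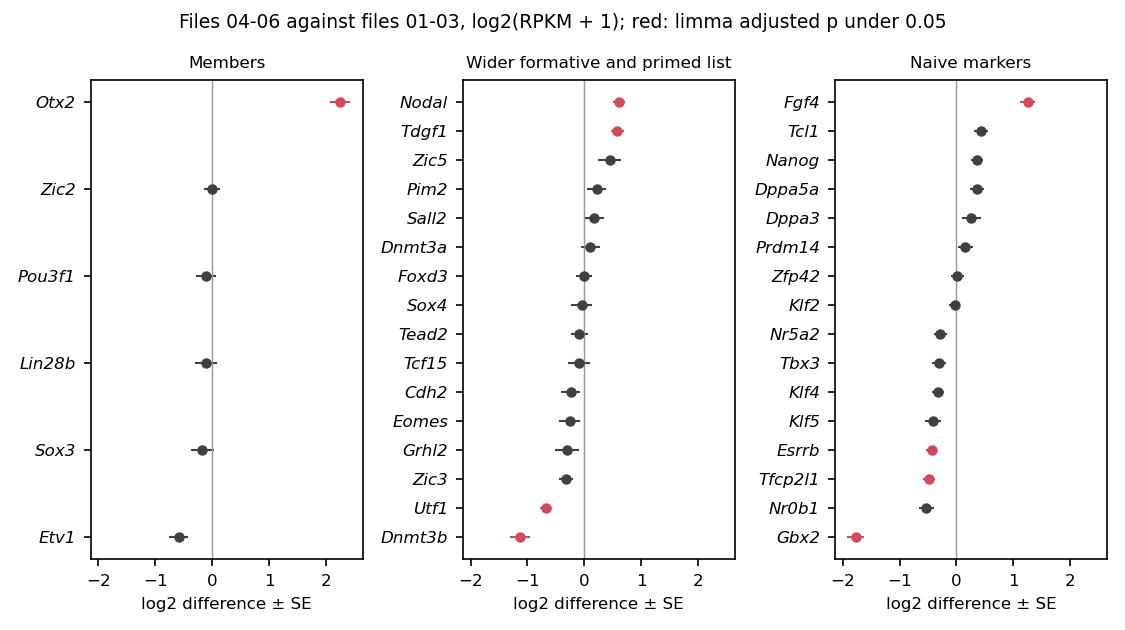
Differences between files 4 to 6 and files 1 to 3 on the log2(RPKM + 1) scale with standard errors (bars) for the 6 tested markers, 16 wider formative and primed genes and 16 naive markers, where red marks an adjusted p under 0.05 in limma. *Otx2* is at 2.25, *Fgf4* at 1.25, *Dnmt3b* at -1.12 and *Gbx2* at -1.77, and red points lie on both sides of 0.

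Markers of other cell types were read in the same libraries. Embryonic stem cell markers summed to 939 to 1246 RPKM in every library, and each was detected in all 6. Primitive endoderm markers summed to 44.2 to 47.7 RPKM in files 1 to 3 and 71.4 to 85.2 in files 4 to 6, nearly all from *Sparc*, which was called higher (adjusted p of 0.0103 in limma). *Dab2* went the other way, from a mean of 1.26 to 0.403 RPKM, and did not pass (adjusted p of 0.0541 in limma). The defining *Gata4*, *Gata6* and *Sox17* were not tested and stayed at or below 0.713 RPKM. Their means were 0.324, 0.349 and 0.174 RPKM in files 1 to 3 and 0.383, 0.0611 and 0.0476 RPKM in files 4 to 6. Early neural markers summed to 4.18 to 6.45 RPKM in files 1 to 3 and 9.62 to 11.96 in files 4 to 6, with *Nes* called higher and *Neurog1* at 0 in 5 libraries. Trophectoderm markers summed to 4.10 to 6.81 RPKM in files 1 to 3 and 1.68 to 2.95 RPKM in files 4 to 6. Of these, *Krt8* was called lower in files 4 to 6 (adjusted p of 0.0199 in limma). *Cdx2*, which was not tested, held 4, 3 and 2 reads in files 1 to 3 and 0 in files 4 to 6. *Gata3* went the other way, from a mean of 0.557 to 0.672 RPKM, and *Eomes* was at 1.76 and 1.34 RPKM. Neither *Gata3* nor *Eomes* passed. Markers of cells resembling the 2-cell embryo summed to 345 and 287 RPKM in the files with the word Ring1BKD and to 58.8 to 141 in the other 4, and 4 of 4 were called higher in Ring1BKD against control by file word, where 0.416% of all genes were called. The same 4, *Usp17lc*, *Zscan4c*, *Zscan4d* and *Zscan4f*, were called lower in files 4 to 6 than in files 1 to 3, with adjusted p from 0.0221 to 0.0400 in limma, the comparison in which *Otx2* was called. The *Zscan4* genes are of the same family, and the list was chosen with earlier results of these data known. All calls for Ring1BKD against control were lost without the filter on low values, with an unmoderated model and without the file-set block. Primitive streak and fibroblast sums stayed at or below 3.48 RPKM. The part of these cells in the marker differences was not tested.

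The tested genes whose levels were most like those of a marker over the 6 libraries, by Pearson's r of log2(RPKM + 1), are given as a description. For *Otx2* they were 2210013O21Rik (r = 0.9993) and *M6pr* (r = 0.9981), the receptor that carries lysosomal enzymes. *M6pr* was at 39.3, 38.7 and 39.8 RPKM in files 1 to 3 and at 54.6, 48.9 and 57.4 RPKM in files 4 to 6, so it kept the order of *Otx2* within the second set over a smaller span. For *Etv1* the closest were *Asb8* and *Dap* (r = 0.9918 and 0.9899). For *Sox3* they were *Esrra* and *Ppp1r3b* (r = 0.9853 and 0.9848), for *Zic2* *Mxd3* and *Anapc5* (r = 0.9945 and 0.9867), for *Lin28b* *Topbp1* and *Zfp157* (r = 0.9941 at the least) and for *Pou3f1* *Pde4dip* and *Rnaset2a* (r = 0.9957 and 0.9908). These were the highest of 11538 candidate genes over only 6 libraries, which share the differences between the sets of files.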

How the data were processed

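RNA-seq was performed on 6 libraries from E14 mES cells, with TruSeq Stranded mRNA libraries sequenced on a MiSeq system. The authors aligned reads to the mouse genome with the Illumina Analysis Pipeline, allowing 1 mismatch, and deposited RPKM per gene from reads mapped uniquely to a gene, with 1 table per library and no pooling. The submitters' processing notes name the build mm9. The annotation and software versions are not given in the sources used here. RPKM corrects for depth and exon length and not for RNA composition.

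The steps of the deposited RPKM values gave whole reads for 15379 of 16668 genes (92.3%), and 457 values above 0 but below 0.001 RPKM were treated as 0 in this step. Recovered exon lengths differed from annotated transcripts for 6 of 7 markers. For *Otx2*, whose smallest step gave no whole exon length, reads were doubled, so its counting intervals may be too narrow. Groups followed the sample titles. limma (version 3.58.1, R 4.3.3) was fitted to log2(RPKM + 1) of genes averaging 0.5 RPKM or more, with a variance trend. The labelled fit had no covariates, and the fit by file word had the set of files as a block. Python 3.11.15 and SciPy 1.17.1 gave exact 95% counting intervals, which treat reads as independent molecules. The fits were also run on simulated reads with the same dispersion for every gene and changes only in chosen genes. The real libraries also differed between the sets of files, so that run does not check the fits under this design. The labels' replicate numbers were checked as pairs, and the check could not settle whether they pair the libraries.

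The markers and the gene lists were chosen with earlier results of these data known. All 7 markers are named with every value. From each other list, the 3 genes with the highest mean RPKM and the 3 with the smallest unadjusted p by label are named, with the called genes, the targeted genes and, for each tested marker, the 2 genes with the highest Pearson's r. *Esrrb* and the genes named among the cell type markers were chosen after their values were seen. Alternatives were other pseudocounts, filters and scalings, an unmoderated model, blocks, leaving out each library and, chosen after seeing the data, limma-voom on the recovered reads.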

Additional observations from a re-analysis of the deposited data

How the results depend on the processing

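Read numbers limit most of these results: 2 of 7 markers averaged fewer than 10 reads, PCR duplicates are counted as reads, and each label has 2 libraries. The depth does not show small changes of *Fgf5* or *Pou3f1*.

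The number of markers called between the sets of files was 1, and became 0 without the filter on low values, 0 with an unmoderated model and 2 (*Otx2* and *Etv1*) with limma-voom on the recovered reads. For *Otx2* the adjusted p in limma ranged from 2.58e-06 to 0.234 over these alternatives. In the other comparisons 0 markers were called under any alternative run. Leaving out each library in turn left these counts at 0, and at 1 between the sets.

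The replicate block changed no call of a marker (*Otx2* at 2.28 in Dzip3-KD against control), and genes called over all tested were 0, 1 and 0 in the labelled comparisons. Deviations of same-numbered libraries correlated at -0.036, -0.242 and 0.0444. With 2 libraries per label, and the label Ring1B-KD split between the sets of files, this could not settle whether the numbers pair the libraries. Over all genes, calls between the sets went from 879 to 0 without the filter and 0 unmoderated, 1592 with voom, and 264 to 582 with a library left out. Calls for Ring1BKD against control by file word went from 48 to 21 with a pseudocount of 0.1, 0 without the filter, unmoderated or without the file-set block, 92 with voom, and 0 to 65 with a library left out. Calls for Dzip3KD against Ring1BKD went from 78 to 42, 0 and 124 under the same settings, and 23 to 172 with a library left out. Dzip3-KD against control by label gave 0 to 28 calls with a library left out, and Dzip3KD against control 1 with voom and 0 to 5.

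Some differences of markers that were not called changed sign. *Otx2* in Dzip3-KD against Ring1B-KD by label was at -0.19 with the file-set block. *Zic2* was at 0.0205 with voom in Dzip3-KD against control by label, and between the sets at -0.0026 with a pseudocount of 0.1 and -0.0012 with 0.5. With a library left out, differences by label ranged from -0.34 to 0.12 for *Etv1*, -0.19 to 2.01 for *Otx2* and -0.50 to 0.0889 for *Zic2* in Dzip3-KD against Ring1B-KD, from -0.37 to 0.10 for *Lin28b* in Ring1B-KD against control, and from -0.40 to 0.0368 for *Sox3* and -0.37 to 0.22 for *Zic2* in Dzip3-KD against control. By file word they ranged from -0.11 to 0.20 for *Etv1* and -0.26 to 0.0282 for *Pou3f1* in Ring1BKD against control, from -0.29 to 0.0033 for *Pou3f1*, -0.34 to 0.40 for *Sox3* and -0.11 to 0.14 for *Zic2* in Dzip3KD against control, and from -0.19 to 0.41 for *Lin28b* and -0.13 to 0.0786 for *Pou3f1* in Dzip3KD against Ring1BKD. Between the sets they ranged from -0.26 to 0.10 for *Lin28b*, -0.42 to 0.0276 for *Sox3* and -0.0808 to 0.16 for *Zic2*. The cause was not tested.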
